A study of Mus musculus with 5 samples.

Results

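Hepatocytes are polarised cells. Their sinusoidal (basolateral) face takes up bile salts, organic anions and organic cations from the blood, mainly through carriers of the Slco, Slc10a and Slc22a families, and their canalicular face pumps bile salts, phospholipid, sterols and conjugates into bile, mainly through ATP-driven pumps of the Abcb, Abcc and Abcg families. A smaller set of basolateral exporters returns solutes to the blood, and bile duct cells carry another selection of the same families. The genes described here are the mouse Slco, Slc10a, Slc22a, Slc47a, Slc51, Abcb, Abcc and Abcg genes, chosen by symbol, with a mean of at least 10 normalised counts over the libraries. Of 55397 genes in the table, 77 had such a symbol and 57 reached that mean.

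The tissue was liver tumour of mice given Akt and the Notch intracellular domain (NICD) by hydrodynamic tail vein injection (HDTVI) of Sleeping Beauty transposon plasmids, a model in which transformed hepatocytes form cholangiocarcinoma (CCA), a tumour with bile duct features. Both groups carried Akt and NICD, both were female C57BL/6N mice injected at 8 weeks of age, and both received doxycycline food (6.25% per the labels) from day 21, so that the doxycycline switch carried on the NICD plasmid was active from week 3 to week 4. The 3 Prox1 OE libraries had in addition a plasmid with Flag-tagged mouse Prox1 and GFP behind the doxycycline-responsive promoter, and the 2 Control libraries the same kind of plasmid without Prox1. Tumours were collected after that week or at a humane endpoint, without a label saying which applied to which tumour. HDTVI reaches only a fraction of hepatocytes, so that host liver cells remain around such tumours.

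Prox1 was measured at 4153 and 4664 normalised counts in the Control libraries. The Prox1 OE libraries had 48090, 11113 and 8231. All 3 lay above both controls, and replicate 1 stood far above the other two. Prox1 was not called by limma at a threshold of 0.05 (log2 fold change 1.90, SE 0.66, adjusted p = 0.061), and was called by edgeR (2.36, adjusted p = 0.0465), by limma without Prox1 OE replicate 1 (1.12, adjusted p = 0.0056) and by limma without Prox1 OE replicate 3 (2.39, adjusted p = 0.0325). Prox1 was not called in 11 of the 15 alternatives run, DESeq2 among them (2.35, adjusted p = 0.0647). Recovered depth was 48740863 to 56629477 reads per library.

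As a group, the transporters were higher in Prox1 OE tumours. Of the 57 genes, 28 (49.1%) were called higher and 7 (12.3%) lower, whereas 17.1% of all 17105 genes tested were called higher and 16.2% lower. In 34 of the 57 every Prox1 OE library lay above both controls, against 30.9% of all genes, and in 8 every one lay below, against 32.4% of all genes. The median log2 fold change was 0.79, beside -0.02 over all genes tested, and single genes ran from -1.26 to 2.96. Scaling by total counts in place of the deposited size factors shifted the median of all genes to -0.44, with 8.62% of genes called higher and 39.9% lower. Under that scaling 21 of the transporters were called higher and 8 lower, and their median was 0.81 above that of all genes. Without Control replicate 1 the calls fell to 13 higher and 1 lower, and those of all genes to 3.98% higher and 2.79% lower. In bulk tumour RNA, a change in the number of cells of a type and a change in RNA per cell cannot be told apart.

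**Figure D1:**
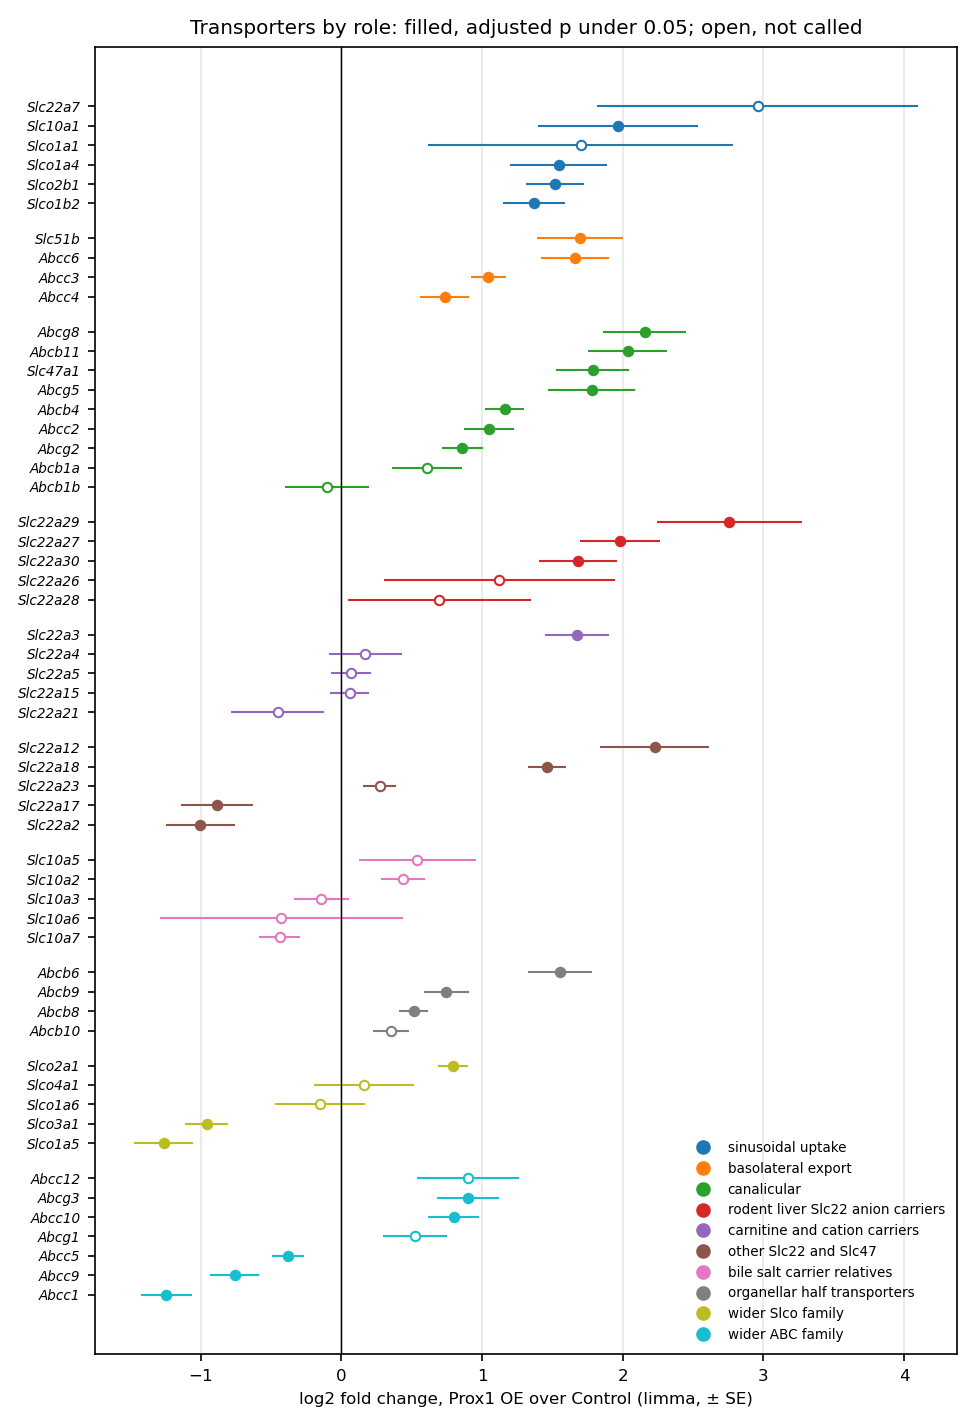
Log2 fold change (Prox1 OE over Control, x axis, bars show the limma standard error) of the transporters reported here, grouped by role and ordered by size within a role. Filled points had an adjusted p under 0.05; sinusoidal uptake, basolateral export and canalicular genes lie mostly to the right of 0, and the 7 genes called lower are in the wider Slco and ABC families and among the other Slc22 carriers.

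Cell type markers moved along with the transporters. The 9 hepatocyte markers, led by Alb, summed to 1153403 and 1697144 normalised counts in the controls and to between 3421733 and 4988805 in the Prox1 OE libraries. Of these 9, 8 were called higher, beside 17.1% of all genes. The 9 cholangiocyte markers, among them Krt19, Krt7, Sox9 and Spp1, summed to 763429 and 832219 in the controls and to between 526763 and 711591 in Prox1 OE. Of these 9, 7 were called lower, beside 16.2% of all genes, with a median of -1.07. Spp1, which was not called (-0.34, adjusted p = 0.51), made up 93.3% to 96.8% of these sums, and the other 8 summed to 47471 and 51418 in the controls and to between 17447 and 22766 in Prox1 OE. The cells were labelled as transformed hepatocytes, and every library held both sets at high levels.

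Markers of the other cell types of the liver were also measured. Their calls stand beside 17.1% of all genes called higher and 16.2% called lower. The 6 macrophage markers summed to 11011 and 13008 in the controls and to between 20117 and 29262 in Prox1 OE. Of these, 3 were called higher, namely Cd5l, Clec4f and Vsig4, which mark the resident macrophages of the liver. Adgre1 (0.435, with overlapping groups), Cd68 (0.625) and Csf1r (0.502) were not called, and the list median was 0.756. Of 6 endothelial markers, summing to 7710 and 9943 in the controls and to between 9676 and 14007 in Prox1 OE, Clec4g and Stab2, genes of liver sinusoidal endothelium, were called higher and 4 were not called, with a list median of 0.09. Among the 4, Lyve1, also a sinusoidal marker, had a log2 fold change of -0.53, and Cdh5 (-0.33) and Pecam1 (-0.27) lay below both controls in every Prox1 OE library. Of 6 stellate and fibroblast markers, summing to 88558 and 90663 in the controls and to between 45814 and 56552 in Prox1 OE, the quiescent stellate cell gene Lrat was called higher and Acta2, Col1a1 and Col3a1 lower. The 5 lymphocyte markers tested summed to 693.4 and 898.0 in the controls and to between 866.1 and 1255 in Prox1 OE, with 2 called higher. No defining marker of these lists was at 0 in any library. The part of these cells in the transporter values was not tested.

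The promoters of the main bile salt carriers of either face are shown because RNA of uptake and of secretion carriers was higher. The stretch between Abcg5 and Abcg8, which share one upstream region, is shown with them. Sequences are from RefSeq on GRCm38.p6, the same assembly as mm10, and run 5′ to 3′. Windows of 300 bases (250 before and 50 after the start) were at hand for 44 of the 57 genes. Capitals in Slc10a1, at chr12:80968706-80968955 on the minus strand, mark CAAAGTC, the core of an HNF4A element. Capitals in Abcb11, at chr2:69342617-69342866 on the minus strand, mark a match with at most 1 mismatch to AGGTCANTGACCT, the inverted repeat of the nuclear receptor half-site AGGTCA that the bile acid receptor FXR is known to bind. The stretch between the starts of Abcg5 and Abcg8 is chr17:84683012-84683120 on the plus strand and held none of the motifs searched.
Slc10a1: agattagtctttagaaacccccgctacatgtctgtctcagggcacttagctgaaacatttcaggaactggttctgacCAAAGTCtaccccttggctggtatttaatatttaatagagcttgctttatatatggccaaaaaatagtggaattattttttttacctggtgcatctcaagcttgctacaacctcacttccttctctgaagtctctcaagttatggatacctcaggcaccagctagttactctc
Abcb11: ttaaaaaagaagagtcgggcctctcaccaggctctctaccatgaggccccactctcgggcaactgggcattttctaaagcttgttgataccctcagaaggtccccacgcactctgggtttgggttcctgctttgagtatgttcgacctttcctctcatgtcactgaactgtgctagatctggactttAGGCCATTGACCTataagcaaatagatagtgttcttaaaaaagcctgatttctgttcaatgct
Abcg5 to Abcg8: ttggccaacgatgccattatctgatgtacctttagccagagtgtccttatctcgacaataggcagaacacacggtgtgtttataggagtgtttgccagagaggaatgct

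Motifs were searched on both strands of every window. A gene with several windows was counted once if any held the motif. The half-site AGGTCA was in the windows of 11 of the 44 transporters (25.0%) and of 18.1% of all 27025 genes with a window. The HNF4A core CAAAGTC was in 4 (9.09%) and in 5.00% of all genes, and the HNF1 half-site GTTAAT in 3 (6.82%) and in 8.24%. The inverted repeat, which contains the half-site, was matched in 2 of the 44, Abcb11 and Slco1b2, and in 0.0999% of all genes. In Abcb11 it began 63 bases before the start, and in Slc10a1 the HNF4A core began 173 bases before it. The half-site counted for Slc10a1 lies in the window of a further start that is not shown. The shares were not tested, and that of the inverted repeat rests on 2 genes. A match describes the letters in a window and does not show binding.

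On the sinusoidal face, all 7 uptake carriers had a positive log2 fold change. Of these, 5 were called higher (71.4%, beside 17.1% of all genes), and the median was 1.57. Slc10a1 (NTCP, chr12:80953183-80968705) takes up conjugated bile salts with sodium. It had 762.4 and 1427 normalised counts in the controls and 2138, 3404 and 9361 in Prox1 OE. The groups did not overlap, and replicate 3 was over 2-fold above the next library. The log2 fold change was 1.97 (SE 0.57, adjusted p = 0.034). That call was lost on leaving out either control or Prox1 OE replicate 2, with adjusted p from 0.0662 to 0.216 and a log2 fold change of at least 1.52. It was also lost without the filter on low values (0.0651) and without the variance trend (0.0893).

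Slco1b2, the mouse counterpart of the human liver organic anion transporters of the 1B class, stood at 5173 and 6485 in the controls and at 14986, 11532 and 19365 in Prox1 OE, a log2 fold change of 1.37 (SE 0.22, adjusted p = 0.0049). Its groups did not overlap. Slco2b1, a carrier of steroid sulphates, had 1376 and 2008 in the controls and 4588, 4051 and 5834 in Prox1 OE (1.52, SE 0.21, adjusted p = 0.0032). Slco1a4, which carries bile salts and many drugs, had 406.7 and 747.6 in the controls and 1099, 1686 and 2253 in Prox1 OE (1.54, SE 0.34, adjusted p = 0.014). Each of these rose in every Prox1 OE library. The Slco1a4 call was lost without Control replicate 1 or Prox1 OE replicate 2, with adjusted p of 0.115 and 0.0571, and the Slco1b2 call without Control replicate 1 (0.0582).

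The remaining uptake carriers varied most between tumours. Slc22a7 (OAT2), an organic anion carrier, had 9.04 and 67.0 normalised counts in the controls and 52.2, 211 and 742 in Prox1 OE. Its log2 fold change of 2.96 was the largest among the 57 genes, but its SE was 1.14, its groups overlapped and the adjusted p was 0.083. It was called on leaving out Prox1 OE replicate 1 (3.93, adjusted p = 0.0265). Slco1a1, a bile salt and steroid conjugate carrier, had 71.5 and 34.8 in the controls and 56.2, 83.8 and 932 in Prox1 OE (1.70, SE 1.08, adjusted p = 0.26). For both genes replicate 3 carried most of the Prox1 OE mean.

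**Figure D2:**
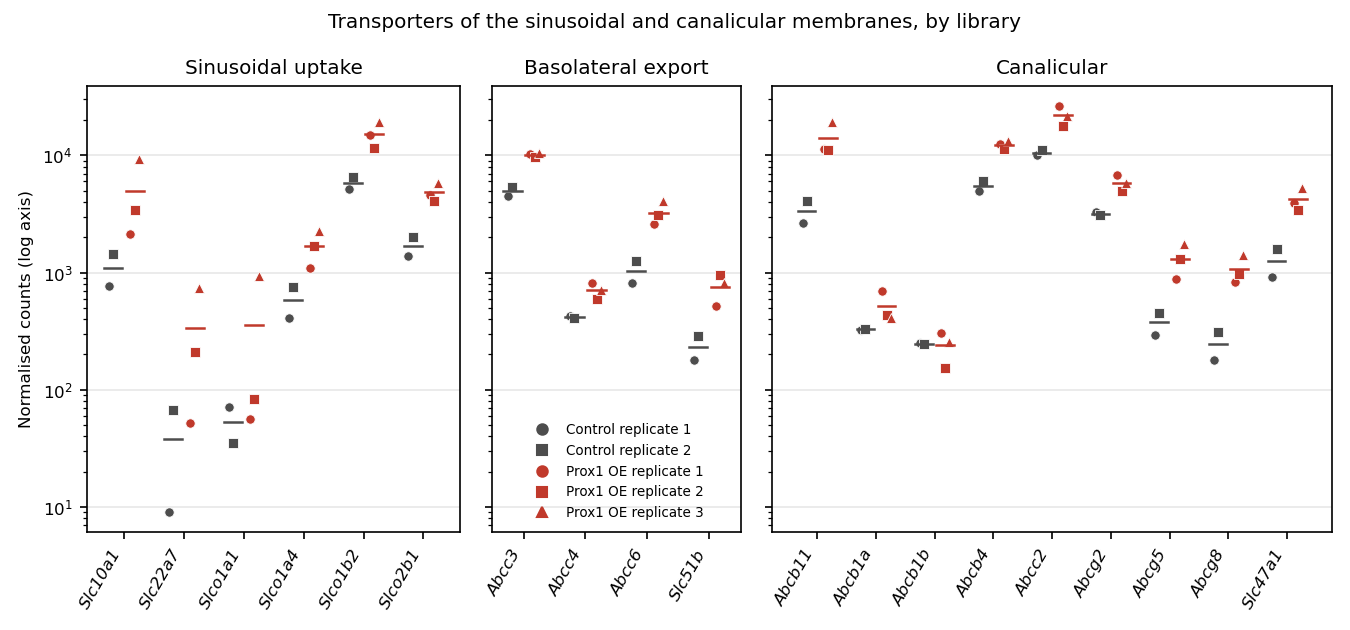
Normalised counts (y axis, log scale) of the reported sinusoidal uptake, basolateral export and canalicular genes in each library, with Control in grey and Prox1 OE in red; short lines are group means of 2 and 3 libraries. The groups are separate for most genes, and Slco1a1, Slc22a7 and Abcb1b overlap.

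On the canalicular face, 7 of 9 genes were called higher (77.8%, beside 17.1% of all genes), 2 were not called, and the median was 1.16. Abcb11 (BSEP, chr2:69238282-69342616) is the pump that drives bile salts into bile. It had 2636 and 4089 normalised counts in the controls and 11350, 11143 and 19331 in Prox1 OE. Every Prox1 OE library was over 2-fold above both controls, and the log2 fold change was 2.04 (SE 0.28, adjusted p = 0.0033). The call held in all 15 alternatives run. Abcb4 (MDR2), which moves phosphatidylcholine into bile, rose less, from 4997 and 6058 to 12467, 11251 and 13316 (1.16, SE 0.14, adjusted p = 0.0026). Per kb, the ratio of Abcb4 to Abcb11 was 1.04 and 0.812 in the controls and 0.602, 0.554 and 0.378 in Prox1 OE, without overlap.

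Abcg5 and Abcg8, whose products pair to form the sterol exporter, lie head to head, with 109 bases between the RefSeq starts used for the printed stretch. In the GENCODE annotation Abcg8 (chr17:84676302-84700333) begins inside Abcg5 (chr17:84658234-84683011), so the gene spans overlap on opposite strands. Abcg5 rose from 294.1 and 455.2 normalised counts to 873.2, 1304 and 1749 (1.78, SE 0.31, adjusted p = 0.0060). Abcg8 rose from 178.3 and 308.5 to 832.3, 977.0 and 1415 (2.15, SE 0.30, adjusted p = 0.0032). Both ranked the 5 libraries in the same order. The ratio of Abcg8 to Abcg5 per kb was 0.438 and 0.490 in the controls and between 0.542 and 0.690 in Prox1 OE. Without Control replicate 1 the Abcg5 call was lost (adjusted p = 0.061).

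Abcc2 (MRP2), which exports bilirubin glucuronides and other conjugates, rose from 10012 and 11039 to 26244, 17897 and 21855 (1.05, SE 0.18, adjusted p = 0.0057). Slc47a1 (MATE1), which passes organic cations into bile in exchange for protons, rose from 915.2 and 1574 to 3920, 3422 and 5293 (1.79, SE 0.26, adjusted p = 0.0037). Abcg2 (BCRP), an exporter of sulphated conjugates and porphyrins, rose from 3262 and 3110 to 6744, 4957 and 5775 (0.86, SE 0.15, adjusted p = 0.0058). No Prox1 OE library of these genes fell within the control range. With total counts as the library size Abcg2 was no longer called (adjusted p = 0.0595), nor without Control replicate 1 (0.0564) or Control replicate 2 (0.0513). Abcc2 was not called without Control replicate 1 (0.0697).

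The multidrug pumps of the same chromosome 5 cluster as Abcb4 were not called. Abcb1a had 324.5 and 329.7 normalised counts in the controls and 701.4, 435.4 and 408.5 in Prox1 OE (0.61, SE 0.25, adjusted p = 0.095), and DESeq2 called it (0.66, adjusted p = 0.0463). Abcb1b had 248.1 and 243.3 in the controls and 306.7, 152.2 and 256.9 in Prox1 OE (-0.10, SE 0.30, adjusted p = 0.82). The Abcb1a groups did not overlap and the Abcb1b groups did. These genes share 100-base stretches in 9.23% of Abcb1a and 6.04% of Abcb1b positions, so how shared reads were counted can affect both.

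Basolateral exporters rose as well, and all 4 that were tested were called higher, beside 17.1% of all genes, with a median of 1.35. Abcc3 (MRP3), which returns glucuronides and bile salts to the blood, had 4482 and 5406 normalised counts in the controls and 10358, 9686 and 10429 in Prox1 OE (1.04, SE 0.12, adjusted p = 0.0026). Abcc4 (MRP4), an exporter of cyclic nucleotides and bile salts, had 424.8 and 412.8 in the controls and 813.9, 588.8 and 707.1 in Prox1 OE (0.73, SE 0.17, adjusted p = 0.017). The Abcc4 call was lost with total counts as the library size (adjusted p = 0.229) and without Control replicate 1 (0.119) or Control replicate 2 (0.113). Abcc6, through which hepatocytes release ATP, had 806.8 and 1265 in the controls and 2606, 3073 and 4061 in Prox1 OE (1.66, SE 0.24, adjusted p = 0.0036). Each gene was higher in every Prox1 OE library than in either control.

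Slc51b (OSTβ) works only as a pair with Slc51a (OSTα). Slc51b had 178.3 and 286.5 normalised counts in the controls and 513.3, 946.3 and 814.8 in Prox1 OE (1.70, SE 0.31, adjusted p = 0.0068). Slc51a had 0.822 and 0.848 in the controls and 3.07, 2.36 and 0 in Prox1 OE, at most 3 reads in any library, and was not tested. The partner of the higher subunit was barely detected at this depth in both groups. The Slc51b call was lost without Control replicate 1 (adjusted p = 0.0679).

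As list means, RNA of the genes of both faces was higher in every Prox1 OE tumour, by unequal amounts, which are described here without a test. As a mean log2 difference from the Control mean, the 7 sinusoidal uptake genes stood at 1.05, 1.55 and 2.82 in Prox1 OE replicates 1, 2 and 3, with the controls at -0.33 and 0.33. The 9 canalicular genes stood at 1.29, 1.03 and 1.46, with the controls at -0.18 and 0.18. The uptake mean spread more widely over Prox1 OE tumours than the canalicular mean, and the difference between them (uptake minus canalicular) was -0.24, 0.51 and 1.36. The hepatocyte markers stood at 1.44, 1.52 and 2.11 on the same scale. The median over the uptake genes, which weighs Slco1a1 and Slc22a7 less, was 1.03, 1.47 and 2.03, against 1.25, 1.03 and 1.28 over the canalicular genes. Per kb, the ratio of Abcb11 to Slc10a1 was 1.48 and 1.22 in the controls and 2.27, 1.40 and 0.883 in Prox1 OE, so this ratio overlapped between groups. Replicate 3, which had the least Prox1 of the Prox1 OE libraries, was the highest of them for 18 of the 28 genes called higher, replicate 1 for 7 and replicate 2 for 3.

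**Figure D3:**
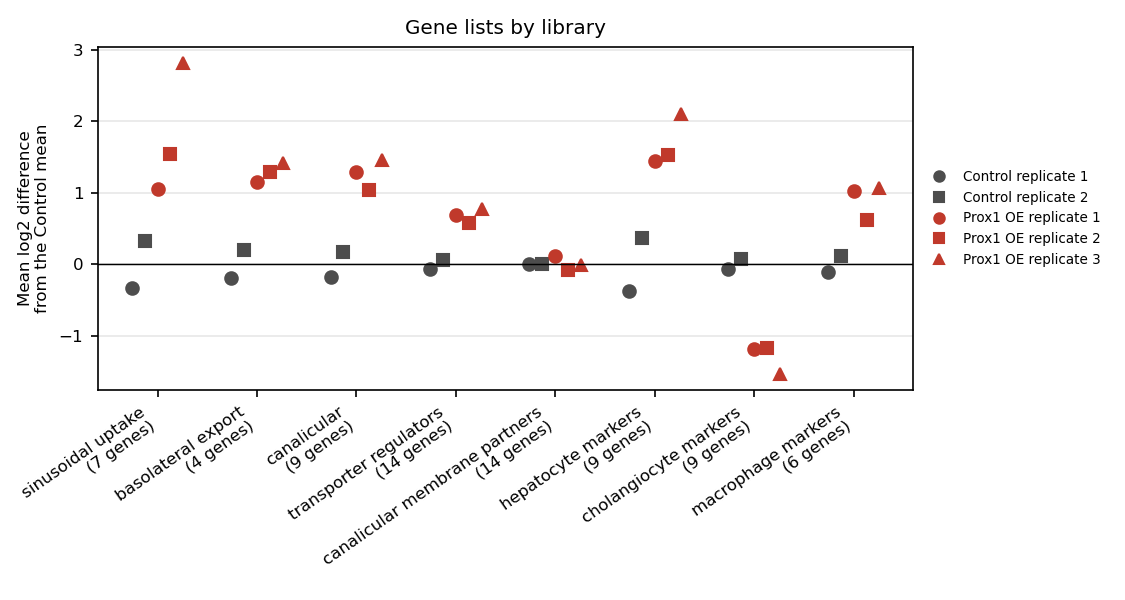
Mean log2 difference from the Control mean (y axis) over the genes of each list, 1 point per library, with Control in grey and Prox1 OE in red. Sinusoidal uptake and hepatocyte markers are highest in Prox1 OE replicate 3, the canalicular mean lies between 1.03 and 1.46 in Prox1 OE, and the cholangiocyte markers lie between -1.54 and -1.17.

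The rodent liver Slc22 anion carriers lie in a cluster on chromosome 19 with Slc22a6 and Slc22a8, the main anion carriers of kidney, which had at most 6 reads in any library. Of 5 tested, 3 were called higher, and the list median was 1.68. Slc22a30 had 598.1 and 743.4 normalised counts in the controls and 1758, 1729 and 3235 in Prox1 OE (1.68, SE 0.28, adjusted p = 0.0052). Slc22a27 had 299.1 and 477.2 in the controls and 1856, 1063 and 1694 in Prox1 OE (1.98, SE 0.28, adjusted p = 0.0035). Slc22a29 had 30.4 and 71.2 in the controls and 579.8, 191.2 and 298.6 in Prox1 OE (2.76, SE 0.51, adjusted p = 0.0077). All 3 were separate between the groups, and unlike the uptake carriers, Slc22a27 and Slc22a29 were highest in replicate 1. Without Control replicate 1 the calls of Slc22a29 (adjusted p = 0.0686) and Slc22a30 (0.0554) were lost. Slc22a26 and Slc22a28 were not called, with overlapping groups. Slc22a28 and Slc22a30 share 37.0% and 21.1% of their 100-base stretches with other genes, mainly with each other, so their separate values are uncertain.

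Of 5 carnitine and related cation carriers, 1 was called higher, beside 17.1% of all genes, and the list median was 0.07. Slc22a5 (OCTN2), the plasma membrane carnitine carrier, had 1104 and 914.6 normalised counts in the controls and 1101, 958.1 and 1102 in Prox1 OE (0.07, SE 0.14, adjusted p = 0.75). Its neighbours on chromosome 11, Slc22a4 and Slc22a21, were not called either, and neither was Slc22a15. Slc22a3 (OCT3), a carrier of monoamines, was the gene called, with 87.1 and 124 in the controls and 326, 300 and 380 in Prox1 OE (1.67, SE 0.23, adjusted p = 0.0031).

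Slc22a2, a neighbour of Slc22a3 on chromosome 17, moved in the opposite direction. Slc22a2 (OCT2) is known mainly from kidney tubule. It fell from 173.4 and 145.8 normalised counts to 90.0, 82.6 and 66.0, by 1.00 on the log2 scale (SE 0.25, adjusted p = 0.020) and lay below both controls in every Prox1 OE library. The Slc22a2 call was lost without Control replicate 1 (adjusted p = 0.189), Control replicate 2 (0.0935) or Prox1 OE replicate 2 (0.0514).

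A like split was seen in the Slco1 cluster at chr6:141524368-142702315. Slco1b2 and Slco1a4 rose, Slco1a1 and Slco1a6 were not called, and Slco1a5 fell. Slco1a5, an anion carrier known from intestine and brain barrier cells, had 445.3 and 342.5 normalised counts in the controls and 182.0, 141.6 and 165.5 in Prox1 OE, a log2 fold change of -1.26 (SE 0.21, adjusted p = 0.0052). All Prox1 OE libraries lay below both controls. The nearest gene of the chosen families beyond it, Abcc9, a potassium channel subunit known from pericytes and muscle, fell too (-0.76, adjusted p = 0.015), a call lost without Control replicate 1 (0.107) or Control replicate 2 (0.11). Slco1a5 shares 1.36% of its 100-base stretches with other genes, and its call was lost without Control replicate 1 (adjusted p = 0.0831).

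Other genes that fell belong to the wider families. Abcc1 (MRP1), an exporter of glutathione conjugates that is low in normal hepatocytes, fell from 1614 and 1500 normalised counts to 805.7, 644.3 and 541.6 (-1.25, SE 0.18, adjusted p = 0.0036). The ratio of the basolateral exporter Abcc3 to Abcc1 per kb was 7.36 and 9.55 in the controls and 34.0, 39.8 and 51.0 in Prox1 OE, without overlap. Slco3a1, a prostaglandin and thyroxine carrier, fell from 5035 and 4880 to 2778, 2817 and 2118 (-0.96, SE 0.15, adjusted p = 0.0044). Slc22a17, a lipocalin receptor, and Abcc5, a cyclic nucleotide exporter, fell by 0.89 and 0.38 on the log2 scale. Without Control replicate 1 the calls of Slco3a1 (adjusted p = 0.0528), Slc22a17 (0.206) and Abcc5 (0.288) were lost. Those of Slc22a17 and Abcc5 were also lost without Control replicate 2 (0.12 and 0.145), without Prox1 OE replicate 2 (0.0598 and 0.0778), without the filter on low values and without the variance trend, and that of Abcc5 without Prox1 OE replicate 3 (0.0919) and with a replicate block (0.102). Of the 7 genes called lower, replicate 3 was the lowest Prox1 OE library for 5 and replicate 2 for 2.

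Of the remaining Slc22 genes, Slc22a18, a poorly characterised carrier of an imprinted region, rose from 2587 and 3128 normalised counts to 7169, 7947 and 8474 (1.46, SE 0.13, adjusted p = 0.0019), the smallest adjusted p of the 57. Slc22a12 (URAT1), the urate carrier of kidney, was low throughout, with 11.5 and 11.0 in the controls and 40.9, 55.5 and 78.7 in Prox1 OE (2.23, SE 0.39, adjusted p = 0.0060). Its groups were separate, and the call was lost without Control replicate 1 (adjusted p = 0.0508).

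Slc10a1 has relatives within its own family that were also measured. None of Slc10a2, Slc10a3, Slc10a5, Slc10a6 and Slc10a7 was called by limma (0 of 5, with 2 at an unadjusted p under 0.05), edgeR called 0 and DESeq2 called 2, Slc10a2 and Slc10a7. Their median was -0.14, and of all genes limma called 17.1% higher and 16.2% lower. Slc10a2 (ASBT), the apical bile salt carrier of bile duct cells and ileum, had 2379 and 2281 normalised counts in the controls and 2612, 3284 and 3668 in Prox1 OE, higher in every library, with a log2 fold change of 0.44 (SE 0.16, adjusted p = 0.067). The cholangiocyte markers, by contrast, lay lower in every Prox1 OE library than in either control in 9 of 9 genes, against 32.4% of all genes. The ratio of Slc10a1 to Slc10a2 per kb was 0.605 and 1.18 in the controls and 1.55, 1.96 and 4.82 in Prox1 OE.

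The Abcb transporters of mitochondria and other organelles, which handle haem, iron-sulphur clusters and peptides, shifted less, with a median of 0.51. Of 5 tested, 3 were called higher, beside 17.1% of all genes. Abcb6, a porphyrin transporter, had 81.3 and 114 normalised counts in the controls and 271, 262 and 325 in Prox1 OE (1.55, SE 0.23, adjusted p = 0.0037). Its separate value is uncertain, as 45.2% of its 100-base stretches also occur in the overlapping gene model Gm29253. Abcb8 (0.51) and Abcb9 (0.74) were called higher, and neither was called with total counts as the library size (0.08 and 0.32) or without either control. Abcb10 lay above both controls in every Prox1 OE library (0.35), and was called by DESeq2 but not by limma. In the wider ABC list Abcc10 and Abcg3 were called higher, though not with total counts as the library size (adjusted p = 0.161 and 0.128), without Control replicate 1 (0.119 and 0.056) or without Control replicate 2 (0.0953 and 0.17), nor Abcg3 without Prox1 OE replicate 3 (0.055), and Abcg1, a cellular cholesterol exporter, and Abcc12 were not called. In the wider Slco list the prostaglandin carrier Slco2a1 was called higher (0.79, adjusted p = 0.0031; with total counts as the library size 0.052) and Slco4a1 was not called.

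Levels were compared between genes per kb of exon, over all 57. Abcb11 went from rank 6 (653.5 per kb) to rank 4 (2709 per kb), and Slc10a1 from rank 10 (497.9 per kb) to rank 6 (2259 per kb). The Prox1 OE level of Slc10a1 was 972.3, 1548 and 4257 per kb in the 3 libraries, and without replicate 3 its mean was 1260 per kb, at rank 8, with Abcb11 at rank 5 (2186 per kb). Slco3a1 went the other way, from rank 8 (585.0 per kb) to rank 23 (303.4 per kb). Slc10a2, which lay above Slc10a1 in Control replicate 1 and below it in Control replicate 2, ranked 9 and 12. Neighbouring ranks among the highest genes, such as Abcb11 and Abcc2 in Prox1 OE at 2709 and 2578 per kb, lie within the spread of the libraries.

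**Figure D4:**
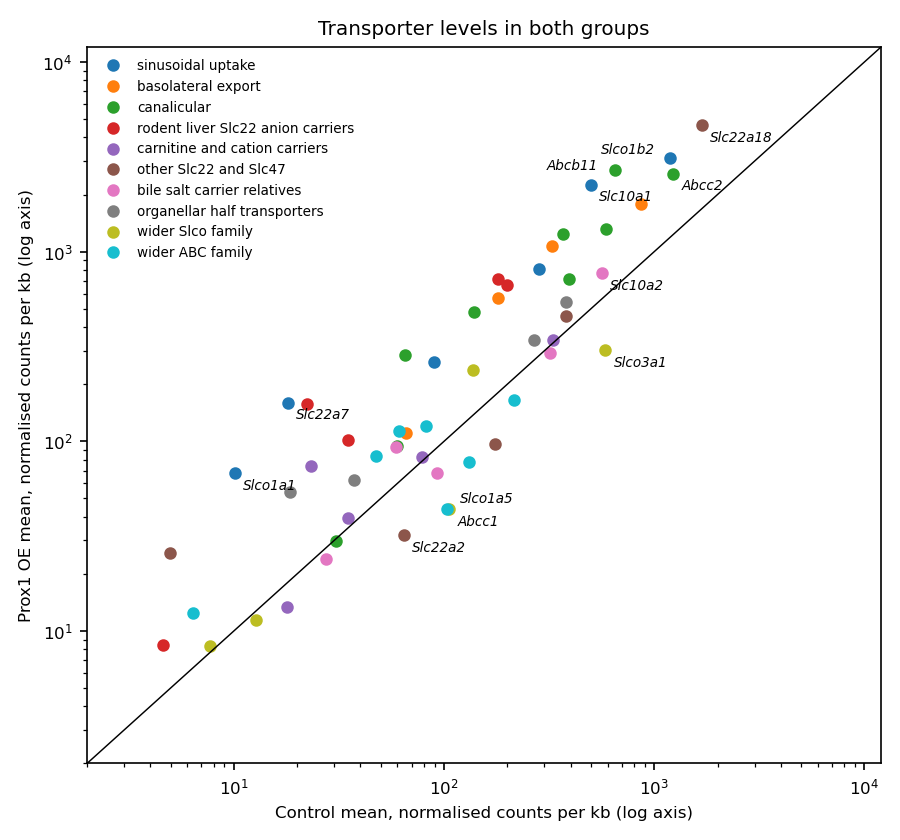
Mean normalised counts per kb of exon of the transporters reported here in Control (x axis) and Prox1 OE (y axis), both on log scales, coloured by role; the line marks equal levels. Most hepatic carriers lie above the line, and Slco3a1, Abcc1, Slco1a5 and Slc22a2 lie below it.

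The 20 genes with a mean below 10 were not tested. They were Slc51a, Slc10a4, Slc22a16, Slc22a13, Slc22a14, Slc22a20, Slc22a22, Slc22a6, Slc22a8, Slc47a2, Slco6b1, Slco6c1, Slco6d1, Slc22a19, Abcb5, Abcc8, Abcg4, Slco1c1, Slco4c1 and Slco5a1.

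The nuclear receptors and other regulators of these transporters were mostly higher as well. Of 14 in the list, 8 were called higher (57.1%, beside 17.1% of all genes) and 1 lower (7.14%, beside 16.2%), with a median of 0.83. Nr0b2 (SHP), a corepressor that bile acids induce through FXR, rose from 198.0 and 311.9 normalised counts to 1043, 1973 and 1535 (2.56, SE 0.30, adjusted p = 0.0025). Nr1i3 (CAR), a xenobiotic receptor, rose from 612.9 and 1298 to 1748, 3244 and 3966 (1.66, SE 0.40, adjusted p = 0.019). Gpbar1 (TGR5), a membrane bile acid receptor of bile duct cells, macrophages and sinusoidal endothelium, fell from 92.8 and 54.2 to 34.8, 14.2 and 18.5 (-1.71, SE 0.46, adjusted p = 0.027). The groups of all 3 were separate. The Nr1i3 and Gpbar1 calls were lost under 3 of 15 and 5 of 14 alternatives, with adjusted p up to 0.145 and 0.215, both without Control replicate 1.

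The canalicular membrane partners are genes whose products anchor, traffic or neighbour the pumps there. Of 14 tested, 3 were called higher (21.4%, beside 17.1% of all genes), 3 lower (21.4%, beside 16.2%) and 8 were not called, with a median of 0.01. Pdzk1, a scaffold that binds transporter tails, rose from 2731 and 2262 normalised counts to 4932, 4364 and 5694 (1.00, SE 0.15, adjusted p = 0.0040). Dpp4, a canalicular peptidase, rose from 2543 and 2604 to 4673, 3677 and 5406 (0.82, SE 0.17, adjusted p = 0.011), and its call was lost with total counts as the library size (0.0644) and without Control replicate 1 (0.0915) or Control replicate 2 (0.0664). Ezr (ezrin), a membrane linker known from bile duct cells, fell from 6867 and 6015 to 3699, 3232 and 2352 (-1.08, SE 0.19, adjusted p = 0.0068). Rdx (radixin), also in the list, was not called (-0.19, adjusted p = 0.33). Without Control replicate 1 the Ezr call was lost (0.0712). Members of the list moved in both directions in every Prox1 OE tumour.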

How the data were processed

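RNA of 5 liver tumours (2 Control, 3 Prox1 OE) was sequenced by the authors. Libraries were dUTP stranded and paired, 100 bases a read. The submitters' processing notes and the study's methods name STAR, mouse build mm10 and DESeq2. The counting tool and its handling of shared reads are not given in the sources used here. The deposited table holds a signal per gene, normalised counts that the authors obtained by dividing reads by a DESeq2 size factor. All values (100%) lay within 0.1 of a whole number of reads after division by the value of 1 read, 0.822 to 1.18 normalised counts, so reads were recovered. The authors' own comparison (means, shrunken log2 fold changes, p-values) was not used.

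Symbols were matched for 55137 of 55397 genes, and coordinates and exon lengths are from GENCODE on mm10. The 17105 genes with a mean of at least 10 were tested two-sided with limma 3.58.1 (R 4.3.3) on log2(normalised count + 1) with a mean-variance trend and Benjamini-Hochberg adjustment over all of them, threshold 0.05, so fold changes of low genes are understated. Named were Prox1, every sinusoidal, canalicular and basolateral export gene, other transporters called with a log2 fold change of at least 1 in size, and the 3 largest called genes of both non-transporter lists; some items are counted but not reported by name here, and other genes given with a value were chosen after their values were seen. edgeR 4.0.16 and DESeq2 1.42.0 on recovered reads were alternatives. Close copies were checked by 100-base stretches shared between transcripts. Self-tests were run on simulated data.

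Members and lists were chosen with earlier results of these data known. Labels do not tie libraries to separate mice, so p-values measure the spread between these libraries. They were not copies of each other, as chi-square per degree of freedom was 39.6 between controls and 80.4 to 125.5 between Prox1 OE libraries. An exact permutation test of 2 against 3 cannot go below p = 0.1 and was not used. A count of 3 reads, the limit for a count of 0, is 2.46 to 3.54 normalised counts.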

Additional observations from a re-analysis of the deposited data

How the results depend on the processing

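Over 15 alternatives, the 37 named genes tested gave 356 values on the same side of the threshold, 5 newly called and 7 no longer called under settings other than leaving out 1 library in turn (the replicate block, which drops a library, is among them), and no direction changed. With 1 library left out the figures were 152, 3 and 29, and 1 direction changed: Abcb1b, not called in any alternative, was 0.19 (adjusted p = 0.505) without Prox1 OE replicate 2 and as low as -0.31 without Prox1 OE replicate 1. Leaving out 1 library gave between 13 and 31 transporters called higher, and between 1 and 8 called lower, while the share of all genes called ran from 3.98% to 21.9% higher and from 2.79% to 21.9% lower. The lowest counts, 13 and 1, came without Control replicate 1, when 17 of the 37 named genes were no longer called and the lone control is assumed to vary like the Prox1 OE libraries. Without Control replicate 2 there were 21 higher and 3 lower, and without Prox1 OE replicate 2 there were 27 higher and 4 lower. With total counts as library size the canalicular median was 0.73 and the basolateral export median 0.92, which were 1.17 and 1.36 above the median of all genes. The sinusoidal median stayed between 1.14 and 1.82 in all alternatives. With that block, a replicate block without Prox1 OE replicate 3, 32 transporters were called higher and 6 lower, beside 15.6% of all genes higher and 15% lower, and Prox1, Slc22a7 and Abcb1a were newly called. Labels tie no numbers between groups, and deviations of same-numbered libraries correlated at 0.137 and 0.016. DESeq2 called 31 higher and 8 lower, and edgeR 28 and 7. With groups of 2 and 3 libraries no sample could be examined as an outlier.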
